A study of Mus musculus with 6 samples.

Results

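Amino acid transporters were examined as 7 families of solute carriers, Slc1a, Slc3a, Slc6a, Slc7a, Slc36a, Slc38a and Slc43a, with members chosen by gene symbol alone. The symbols matched 63 of 19977 genes in the deposited table. Of these, 61 were carrier genes and 2, Slc7a6os and Slc6a19os, were genes named for lying opposite a carrier, and both were left out of the counts. The 6 libraries hold RNA of CD4+ T cells, 3 from young mice (6 to 8 weeks) and 3 from old mice (11 months), and every mouse was wild-type C57BL/6. All cells were taken from spleen and lymph nodes, sorted by flow cytometry and kept for 6 hours with antibodies to CD3 and CD28, which stimulate the T-cell receptor and its main costimulatory receptor. Both groups share this stimulation, so every level below is one of stimulated cells. Whether each library came from its own animal is not said in the labels, and the p-values below therefore weigh differences against a spread between libraries that may be technical. In bulk RNA, a change in the mix of CD4+ cells and a change in RNA per cell cannot be told apart.

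Resting T cells take up few amino acids, and stimulation turns on import to feed protein synthesis, nucleotide synthesis and growth signalling. Glutamine enters through sodium-coupled carriers, and leucine and other large neutral amino acids enter through a heterodimer on the surface, in which the heavy chain Slc3a2 (CD98) carries a light chain of the Slc7a family to the membrane. Amino acids then activate the growth kinase mTORC1 at the lysosome, while their shortage activates the kinase Gcn2 and the transcription factor Atf4, whose targets include several carriers. The families are not purely amino acid carriers: Slc6a6 moves taurine, Slc6a8 creatine, Slc43a3 purine nucleobases, and many Slc6a members neurotransmitters.

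Libraries held between 16932551 and 18708205 expected counts. All 10 T-cell markers examined passed the filter on low values described below, with summed FPKM (fragments per kilobase of transcript, scaled to the depth of the library) of 2199 to 2413 in young and 2426 to 2935 in old libraries. Their median log2 difference, old minus young, was 0.09, with 7 of 10 positive (44.9% of all genes tested), 0 called in edgeR (0.875%) and 1 called in DESeq2 (4.77%). The CD4 gene itself stood at 0.13 ± 0.29 (0.41 without young replicate 1), Cd3e at 0.21 ± 0.19 and Cd3d at -0.21 ± 0.20, while Thy1 and Cd2, at 0.76 ± 0.24 and 0.55 ± 0.16 (SE, n = 3 each), had an unadjusted p under 0.05, and Thy1 was called without young replicate 1. Of the CD8 genes, Cd8a stood at 0.44 to 0.77 FPKM in the 6 libraries, and Cd8b1 at 10.3 to 17.8 FPKM in young and 6.61 to 9.02 FPKM in old libraries, with groups that do not overlap. Young replicate 1 stood apart, correlating across genes at 0.924 with young replicate 2 and at 0.911 with young replicate 3, against 0.977 between those 2 libraries. Results are therefore also given without it where that matters.

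Transcripts of the 3 carriers with the highest levels were more abundant in every old library than in any young one. However, no single carrier passed the test over all genes. FPKM summed over the 61 carriers was 982, 1241 and 1001 in young replicates 1, 2 and 3, and 1396, 1489 and 1619 in old replicates 1, 2 and 3. Every old library lay above every young one, and the group means were 1074 ± 144 and 1501 ± 112 (SD, n = 3 each), a ratio of 1.40. The carriers' share of all counts was 0.339% to 0.400% in young and 0.451% to 0.516% in old libraries. Slc1a5, Slc3a2 and Slc7a5 together made up 66.02% to 73.9% of the carrier FPKM in the 6 libraries, so the total mainly describes these 3 genes.

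Of the 61 carriers, 22 had a mean of at least 1 FPKM over the 6 libraries and were tested among 10509 genes. In edgeR's quasi-likelihood test, 0 of the 22 had a Benjamini-Hochberg adjusted p under 0.05, against 0.875% of all genes tested (0.742% as higher in old libraries), and the smallest adjusted p was 0.183. At an unadjusted p under 0.05, 8 carriers were higher in old libraries (6.69% of all genes) and 0 were lower (3.96%). The groups did not overlap for 8 carriers, all higher in old libraries, where 9.9% of all genes tested were separated in that direction and 6.54% in the other. The median log2 difference was 0.13 over the carriers and -0.03 over all genes tested, and 15 of the 22 were positive, against 44.9% of all genes. DESeq2 called 3 of the 22, Slc6a9, Slc1a4 and Slc7a5, all higher in old libraries, where it called 4.77% of all genes in either direction and 3.56% as higher. In limma on log2(FPKM + 1), 0 of the 22 and 0.942% of all genes were called. Without young replicate 1, edgeR called 8.84% of all genes and 0 of the 22 carriers, and the smallest adjusted p was 0.0505, that of Slc6a9. In that fit, 8 carriers were higher at an unadjusted p under 0.05 (14.8% of all genes) and 0 were lower (13.3%). On leaving out each library in turn, the log2 difference of 14 of the 22 moved by over 1.5 times or changed sign. These were the 14 carriers without an unadjusted p under 0.05 in the fit of all 6 libraries. That match was largely fixed in advance, since small differences cross a relative limit easily and both measures come from the same 6 libraries.

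**Figure D1:**
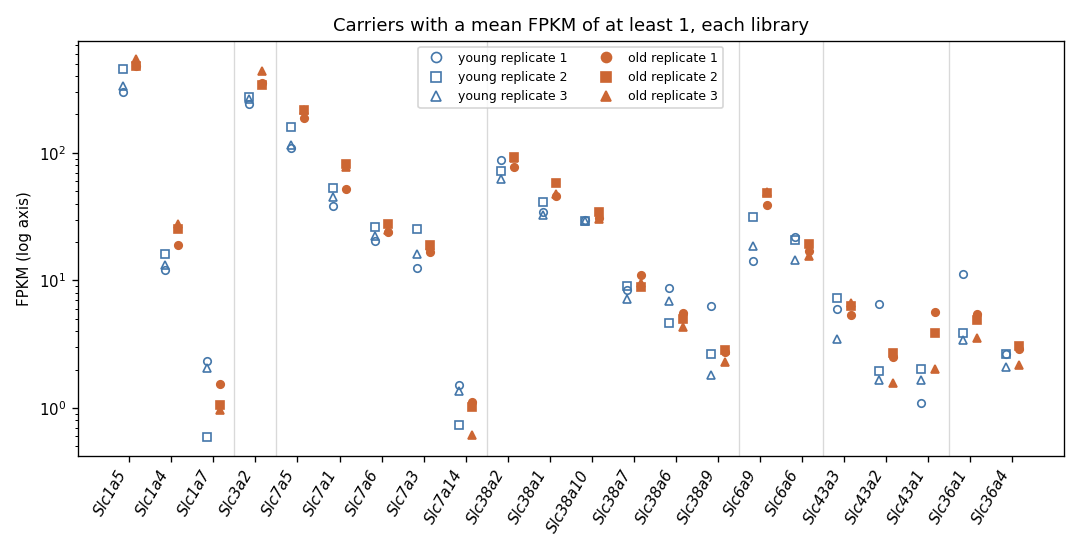
FPKM of the 22 carriers with a mean of at least 1, on a log axis, in each of the 3 young (open, blue) and 3 old (filled, orange) libraries, grouped by family and ordered by level within it. Slc1a5, Slc3a2 and Slc7a5 stand above 100 FPKM in every library, and young replicate 1 (open circle) is high for Slc36a1, Slc38a9 and Slc43a2 and low for Slc6a9.

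**Figure D2:**
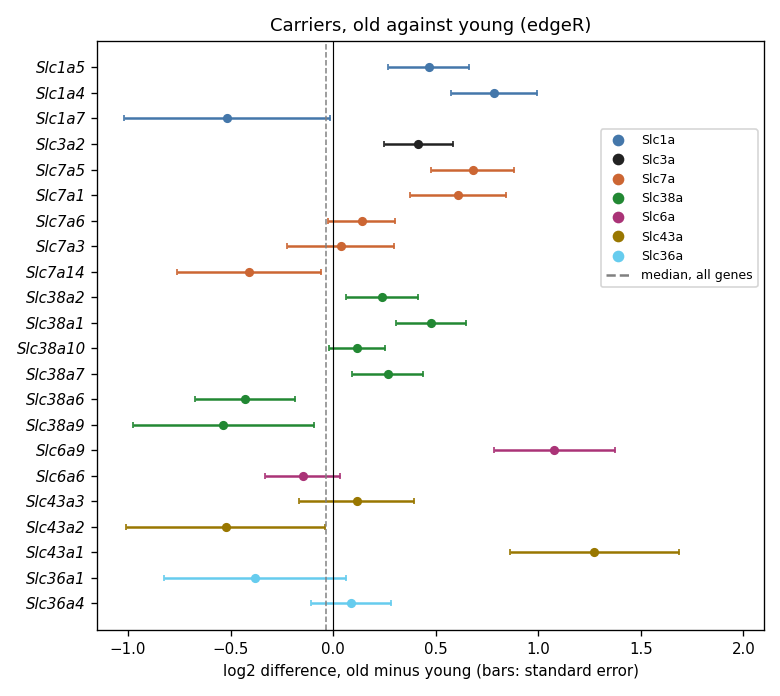
Log2 difference between old and young libraries for the same 22 carriers from edgeR, with standard errors (n = 3 per group), colour giving the family and the dashed line the median of all 10509 genes at -0.03. Slc43a1 (1.27), Slc6a9 (1.08) and Slc1a4 (0.78) lie farthest to the right, and none of the 22 passes an adjusted p of 0.05.

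The Slc1a family holds the sodium-coupled exchangers of small neutral amino acids and the glutamate transporters of brain and retina. Slc1a5 (gene 20514, chromosome 7, 16781334 to 16798274 in GRCm38), the main glutamine importer of stimulated T cells, had the highest level of all carriers. It stood at 297, 452 and 332 FPKM in young replicates 1 to 3 and at 483, 478 and 539 FPKM in old replicates 1 to 3. The old libraries all lay above the young ones, with young replicate 2 nearest to them. Its log2 difference was 0.47 ± 0.20 (SE, n = 3 per group), with an unadjusted p of 0.0486 and an adjusted p = 0.464 in edgeR. The table splits Slc1a5 over 4 transcripts, and the one that holds 52.4% of its FPKM stood at 167, 211 and 216 FPKM in young and 236, 279 and 244 FPKM in old libraries.

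Slc1a4 (gene 55963, chromosome 11, 20302180 to 20332713), which exchanges serine, alanine and cysteine, stood at 12.1, 16.2 and 13.2 FPKM in young and at 18.8, 25.4 and 27.7 FPKM in old libraries. These groups did not overlap, and the table holds 1 transcript for the gene, so no split between transcripts enters its value. The log2 difference was 0.78 ± 0.21 (SE, n = 3 per group), with the smallest unadjusted p among the carriers, 0.00659, and an adjusted p = 0.183 in edgeR. DESeq2 gave it an adjusted p of 0.0339. Slc1a7, a glutamate transporter of the retina, stood at only 2.35, 0.59 and 2.07 FPKM in young and 1.54, 1.05 and 0.97 FPKM in old libraries, with groups that overlap. The 4 other Slc1a genes in the table, Slc1a1, Slc1a2, Slc1a3 and Slc1a6, were below the filter.

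Atf4 acts through a composite element shared with C/EBP factors, searched here as TGATGNAA on both strands in windows from 250 bases before to 50 bases after the start site (RefSeq, GRCm38.p6). The search covered 16 of the 22 tested carriers, and Slc1a5, Slc38a1, Slc43a3, Slc6a6, Slc7a3 and Slc7a5 had no window in the table used. The 16 carriers had 21 windows, of which 1, that of Slc1a4, held the motif, compared with 3.97% of all 32851 windows. Counting carriers below the filter, it was in 5 of 65 windows and in 4 of 44 carriers. The others were Slc7a11, the cystine importer, which held it on each strand, Slc7a7 and Slc6a21. Shares of all windows are per window, and no share per gene was taken to set beside counts of carriers. The windows of Slc1a4 and Slc7a11 are printed 5′ to 3′ on the strand of the gene because the 2 carriers share the motif but not the level, with the motif in capitals. Slc1a4 lies on the minus strand at chr11:20332664-20332963 and Slc7a11 on the minus strand at chr3:50443564-50443863.
Slc1a4: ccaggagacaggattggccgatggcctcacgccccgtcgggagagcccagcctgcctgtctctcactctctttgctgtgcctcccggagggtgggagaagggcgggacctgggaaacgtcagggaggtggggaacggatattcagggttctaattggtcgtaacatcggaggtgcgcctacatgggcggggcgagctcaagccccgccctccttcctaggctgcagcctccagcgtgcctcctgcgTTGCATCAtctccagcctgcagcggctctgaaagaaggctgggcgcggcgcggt
Slc7a11: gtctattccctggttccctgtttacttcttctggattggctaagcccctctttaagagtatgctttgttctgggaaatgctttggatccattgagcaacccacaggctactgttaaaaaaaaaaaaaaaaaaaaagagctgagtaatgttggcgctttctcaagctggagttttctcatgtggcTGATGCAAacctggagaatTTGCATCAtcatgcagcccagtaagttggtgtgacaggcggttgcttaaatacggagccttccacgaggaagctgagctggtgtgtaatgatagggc
The match in Slc1a4 reads TTGCATCA, the motif's reverse complement, and runs from 4 bases before the start site to 3 after the site's first base. Slc7a11 stood at 0.72, 0.57 and 0.32 FPKM in young and 0.60, 0.66 and 0.66 FPKM in old libraries, so its groups overlapped at a level far below that of Slc1a4. A match describes the letters only. An E-box, CACGTG, the motif of Myc, was in 5 of the 21 windows of tested carriers (7.15% of all windows), those of Slc43a1, Slc7a14, Slc1a7, Slc38a7 and Slc36a1. The antioxidant response element, TGACNNNGC, was in 8 of the 21 (12.4% of all windows). These belong to 6 carriers, Slc43a1, Slc6a9, Slc7a1, Slc7a6, Slc36a1 and Slc38a2, and the windows of Slc7a6 overlap on the same match.

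Slc3a2 (gene 17254, chromosome 19, 8706882 to 8723369), the CD98 heavy chain, stood at 241, 276 and 264 FPKM in young and at 353.5, 341 and 441 FPKM in old libraries. The groups did not overlap, with old replicate 3 the highest. The log2 difference was 0.41 ± 0.17 (SE, n = 3 per group), with an unadjusted p of 0.0412 and an adjusted p = 0.434 in edgeR. Of its 4 transcripts, the one with 68.9% of the FPKM stood at 187, 174 and 198 FPKM in young and 242, 258 and 260 FPKM in old libraries. A predicted transcript varied most, from 2.28 FPKM in young replicate 1 to 165 FPKM in old replicate 3. The other heavy chain, Slc3a1, which serves kidney and gut, stood at 1.04, 0.27 and 0.15 FPKM in young and 0.36, 0.41 and 0.08 FPKM in old libraries and was not tested.

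Slc7a5 (gene 20539, chromosome 8, 121881146 to 121907686), the light chain that imports leucine, phenylalanine, tryptophan and methionine, was the main partner of Slc3a2 by level. It stood at 110, 159 and 116 FPKM in young and at 186, 218 and 218 FPKM in old libraries, as a single transcript. No young library reached an old one. The log2 difference was 0.68 ± 0.20 (SE, n = 3 per group), with an unadjusted p of 0.0111 and an adjusted p = 0.244 in edgeR, against an adjusted p of 0.0471 in DESeq2. Slc7a6, the light chain that exchanges arginine for glutamine, stood at 20.3, 26.1 and 22.2 FPKM in young and 23.9, 27.55 and 24.8 FPKM in old libraries. Its groups overlapped, and its log2 difference was 0.14 ± 0.16 (SE), or 0.04 without young replicate 1. The gene spans of Slc7a6 (chromosome 8, 106168219 to 106198714) and Slc7a6os (106200438 to 106210933) do not overlap. Slc7a6os had 847 to 1546 counts per library.

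Summed over its 6 possible light chains (Slc7a5, Slc7a6, Slc7a7, Slc7a8, Slc7a10 and Slc7a11), the partners of Slc3a2 stood at 133, 187 and 139 FPKM in young and 213, 249 and 246 FPKM in old libraries. Slc7a5 made up 83.0%, 85.1% and 83.2% of that sum in young and 87.2%, 87.7% and 88.4% in old libraries. The ratio of heavy chain to light chains was 1.81, 1.48 and 1.89 in young and 1.66, 1.37 and 1.79 in old libraries. Heavy-chain transcript thus exceeded that of the light chains in each library, and the ratio overlapped between the groups. Slc7a7 and Slc7a8, light chains of epithelia and macrophages, had mean levels of 0.762 and 0.262 FPKM over the 6 libraries.

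**Figure D3:**
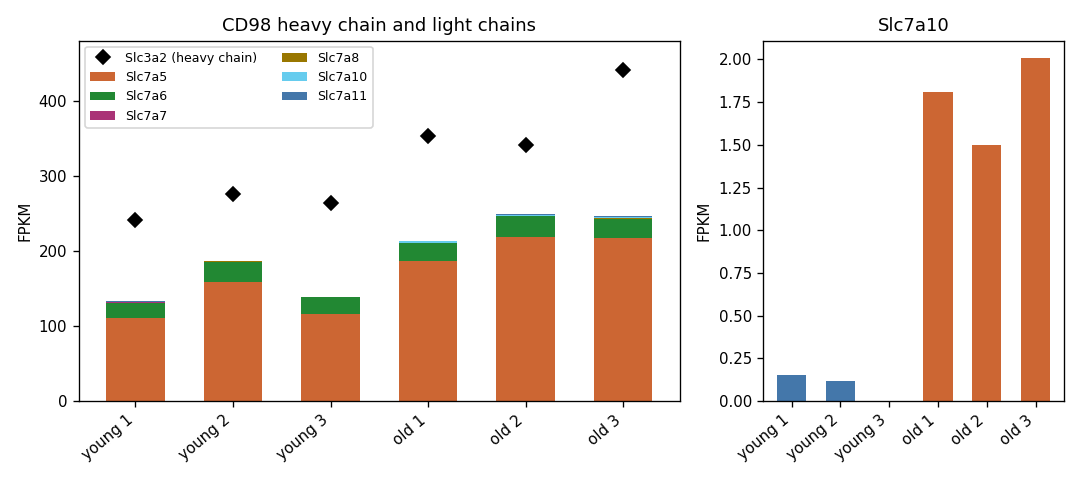
Left, FPKM of the light chains of CD98 stacked for each of the 6 libraries, with the heavy chain Slc3a2 as black diamonds; Slc7a5 makes up 83.0% to 88.4% of each bar. Right, FPKM of Slc7a10 in the same libraries, at 0 to 0.15 in young and 1.5 to 2.01 in old.

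Slc7a10, the light chain that exchanges serine, glycine and alanine and is known from neurons and fat cells, showed the largest relative difference of the carriers above 0.5 FPKM, but at a very low level. It stood at 0.15, 0.12 and 0 FPKM in young and at 1.81, 1.5 and 2.01 FPKM in old libraries. That is 5, 4 and 0 counts against 62.7, 52.7 and 73 counts, with every old library far above every young one. Its mean of 0.932 FPKM put it just below the filter, while Slc7a14, the last carrier above it, had 1.06. Without any filter, edgeR gave it a log2 difference of 4.33 ± 0.66 (SE, n = 3 each) and an adjusted p = 0.0134, the single call among 52 carriers with any count, where 1.11% of 18288 genes were called. A filter at 0.5 FPKM, chosen after its values were seen, lets it through by the old libraries alone (means of 0.09 FPKM in young and 1.77 in old libraries), so its adjusted p of 0.0403 in edgeR there, where 0.959% of all genes were called, supports nothing. The call ended, at adjusted p of 0.0527 to 0.093, on leaving out any library other than young replicate 1, while the log2 difference stayed between 3.75 and 4.87. Also without the FPKM filter, its adjusted p was 1.2e-08 in DESeq2, which called 637 of the 13659 genes it gave an adjusted p. DESeq2 sets its own limit on mean counts, and the mean count of Slc7a10 comes almost wholly from the old libraries. In limma its adjusted p was 0.0381 on log2(FPKM + 1) and 0.0458 on log2(FPKM + 0.1), where 27 and 36 of 18288 genes were called. All these p-values are of a gene picked after its values were seen. Slc7a10 overlaps Lrp3 by its gene span, and Lrp3 had a mean of 0.015 FPKM.

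Cationic amino acids enter through Slc7a members that need no heavy chain. Slc7a1 (gene 11987, chromosome 5, 148327410 to 148399904), the general arginine and lysine importer, stood at 38, 53.3 and 45.4 FPKM in young and at 51.7, 81.3 and 76.9 FPKM in old libraries. Old replicate 1 lay within the young range, so the groups overlapped. The log2 difference was 0.61 ± 0.24 (SE, n = 3 per group), with an unadjusted p of 0.0349 and an adjusted p = 0.402 in edgeR. Slc7a3, a related arginine carrier, stood at 12.5, 25.2 and 15.99 FPKM in young and 16.8, 18.9 and 18.6 FPKM in old libraries, and the young libraries spanned the old ones. Slc7a3 shares part of its gene span with Snx12 (mean 27.0 FPKM), and its direction turned without young replicate 1, from 0.04 to -0.18. The arginine carrier of macrophages, Slc7a2, averaged 0.452 FPKM, and Slc7a14 stood at 0.61 to 1.52 FPKM with overlapping groups.

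Among the Slc38a carriers, which couple neutral amino acids to sodium, Slc38a2 and Slc38a1 stood highest. Slc38a2, which also takes up glutamine and is known to be induced by amino acid shortage, stood at 87.4, 71.4 and 62.0 FPKM in young and 77.8, 92.3 and 91.4 FPKM in old libraries. These groups overlapped through young replicate 1 alone, and the log2 difference was 0.24 ± 0.18 (SE). Without that library it was 0.35, with an unadjusted p of 0.0276 and an adjusted p = 0.129 in edgeR. Slc38a1 (gene 105727, chromosome 15, 96571418 to 96643438), a glutamine carrier, stood at 34.4, 40.8 and 32.4 FPKM in young and 45.9, 57.6 and 47.5 FPKM in old libraries. Its groups did not overlap, and its log2 difference was 0.48 ± 0.17 (SE, n = 3 per group), with an unadjusted p of 0.0255 and an adjusted p = 0.356 in edgeR. Slc38a10 was the steadiest of these genes, at 29.8, 29.1 and 29.1 FPKM in young and 30.9, 34.3 and 30.2 FPKM in old libraries, with groups that do not overlap but a log2 difference of only 0.12 ± 0.14 (SE) and an unadjusted p of 0.414. Slc38a6 went the other way, with 4.61 to 8.72 FPKM in young and 4.35 to 5.56 FPKM in old libraries, a log2 difference of -0.43 ± 0.25 (SE) and overlapping groups, and that difference was -0.23 without young replicate 1 and -0.64 without young replicate 2. Slc38a6 overlaps Trmt5 at its 5′ end. The 5 other Slc38a genes, Slc38a3, Slc38a4, Slc38a5, Slc38a8 and Slc38a11, had means of at most 0.0267 FPKM.

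Slc6a9 (gene 14664, chromosome 4, 117835258 to 117869305), the sodium- and chloride-coupled glycine transporter, showed the second largest positive log2 difference among the 22 tested carriers. It stood at 14.3, 31.3 and 18.65 FPKM in young and at 38.8, 48.5 and 49.0 FPKM in old libraries. The groups did not overlap, and young replicate 1 was the lowest library. Mean levels were 21.4 ± 8.82 and 45.4 ± 5.76 FPKM (SD, n = 3 each), and the log2 difference was 1.08 ± 0.30 (SE), with an unadjusted p of 0.00743 and an adjusted p = 0.197 in edgeR. It was 0.85 without young replicate 1 and between 0.85 and 1.44 over all alternatives, and DESeq2 called it with an adjusted p of 0.0286. Of its 3 transcripts, the one with 60.9% of the FPKM stood at 12.4, 15.7 and 8.82 FPKM in young and 19.6, 39.7 and 25.9 FPKM in old libraries. The taurine carrier Slc6a6 stood at 21.9, 20.6 and 14.5 FPKM in young and 16.9, 19.2 and 15.6 FPKM in old libraries, which overlap. No other Slc6a gene passed the filter: of 20 in the table, 18 stood below it, and the highest of these were Slc6a18 and Slc6a8, with means of 0.752 and 0.623 FPKM.

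The Slc43a family exports or imports large neutral amino acids without sodium. Slc43a1 (gene 72401, chromosome 2, 84838855 to 84863586) had the largest log2 difference among the tested carriers at a low level. It stood at 1.09, 2.04 and 1.67 FPKM in young and 5.63, 3.87 and 2.01 FPKM in old libraries. Old replicate 3 lay within the young range in FPKM and just above it in counts scaled by TMM library totals, so whether the groups overlap depends on the scale. The log2 difference was 1.27 ± 0.41 (SE, n = 3 per group), with an unadjusted p of 0.0166 and an adjusted p = 0.287 in edgeR. Counts ranged from 45 to 250 per library, and the mean of either group alone, 1.60 FPKM in young and 3.84 FPKM in old libraries, lay above the filter. Slc43a2 stood at 6.48, 1.96 and 1.66 FPKM in young and 2.49, 2.69 and 1.56 FPKM in old libraries. For Slc43a3 the values were 5.97, 7.32 and 3.49 FPKM in young and 5.33, 6.25 and 6.67 FPKM in old libraries, with a log2 difference of 0.11 ± 0.28 (SE), or -0.13 without young replicate 3.

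The lysosomal carriers of these families, which return amino acids from degraded protein to the cytosol, showed low levels and no separation of the groups. Slc38a9, the lysosomal arginine sensor of mTORC1, stood at 6.30, 2.65 and 1.81 FPKM in young and 2.75, 2.84 and 2.30 FPKM in old libraries. Slc36a1, a proton-coupled carrier of small amino acids, stood at 11.3, 3.85 and 3.41 FPKM in young and 5.50, 4.91 and 3.57 FPKM in old libraries. Together with Slc43a2, these genes share a high value in young replicate 1. Their log2 differences of -0.54 ± 0.44 (Slc38a9), -0.38 ± 0.45 (Slc36a1) and -0.52 ± 0.49 (Slc43a2; SE, n = 3 per group) turned positive without that library, at 0.20, 0.35 and 0.27. Slc38a7, a lysosomal glutamine and asparagine carrier, stood at 8.43, 9.0 and 7.15 FPKM in young and 10.95, 8.90 and 9.63 FPKM in old libraries. Slc36a4 stood at 2.63, 2.63 and 2.09 FPKM in young and 2.89, 3.05 and 2.16 FPKM in old libraries, and Slc36a3 and Slc36a2 stood at means of 0.137 and 0 FPKM.

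Over whole families, the FPKM sums separated the groups in Slc1a, Slc3a, Slc7a and Slc6a, and overlapped in Slc38a, Slc43a and Slc36a. Slc1a summed to 376 ± 82.2 FPKM in young and 526 ± 36.4 in old libraries, and Slc3a to 260.5 ± 17.4 and 379 ± 54.2 (SD, n = 3 each). Slc7a summed to 218 ± 42.7 and 326 ± 36.7 FPKM, and Slc6a to 42.7 ± 9.59 and 64.9 ± 6.05 (SD, n = 3 each). These 4 sums rest mainly on Slc1a5, Slc3a2, Slc7a5 with Slc7a1, and Slc6a9 with Slc6a6. Slc38a summed to 157 ± 17.8 FPKM in young and 187 ± 13.6 in old libraries. It overlapped only through young replicate 1, at 175.05 FPKM against 173.93 FPKM in old replicate 1. For Slc43a the sums were 10.6 ± 3.42 and 12.2 ± 1.70 FPKM, and for Slc36a 8.77 ± 4.75 and 7.49 ± 1.52 (SD, n = 3 each). The Slc36a ratio of old to young turned with young replicate 1, from -0.23 to 0.31 on the log2 scale.

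**Figure D4:**
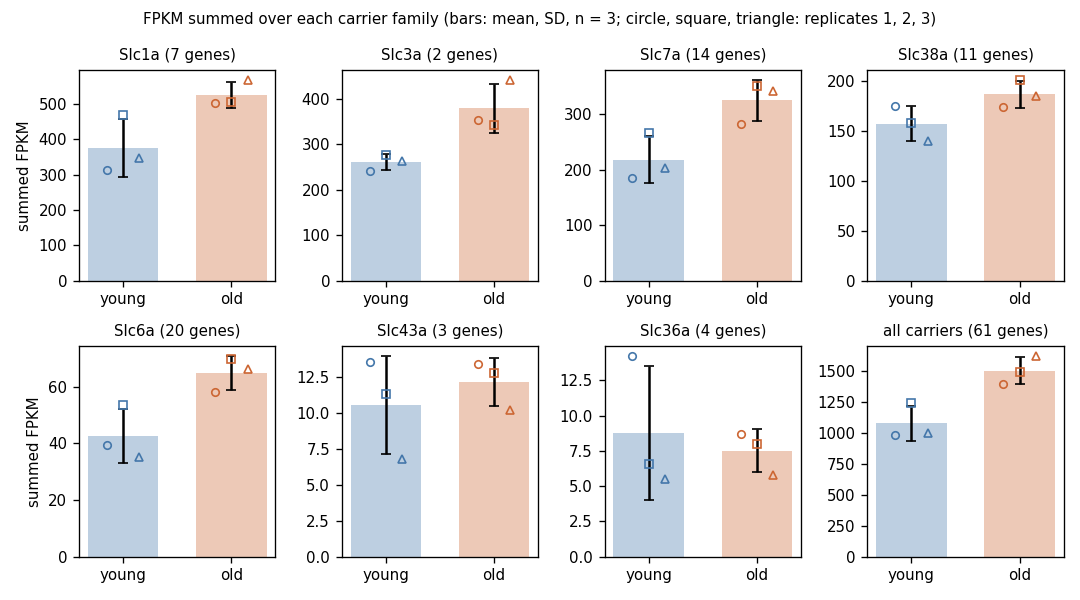
FPKM summed over the members of each carrier family and over all 61 carriers, with bars for the group mean, error bars for the SD (n = 3) and symbols for the libraries; each axis starts at 0 and has its own scale. The old libraries lie above the young ones for Slc1a, Slc3a, Slc7a, Slc6a and all carriers (981.69 to 1240.57 against 1395.76 to 1619.03), and overlap with them for the others.

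Below the filter stood 39 carriers, of which 9 were listed at 0 in all 6 libraries. Those at 0 were Slc1a6, Slc6a3, Slc6a14, Slc6a20a, Slc6a21, Slc7a9, Slc7a15, Slc36a2 and Slc38a5. Most are known from kidney, gut or brain, such as Slc6a3, the dopamine transporter, and Slc7a9, the cystine carrier of kidney. Only 5 of the 39 had a mean of 0.5 FPKM or more: Slc7a10, Slc7a7, Slc6a18, Slc6a8 and Slc7a11.

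The libraries of a group did not keep one order over the carriers. Young replicate 2 was the highest young library for 12 of the 22 (23.2% of all genes tested) and young replicate 1 the lowest for 10 and the highest for 8 (41.2% and 45.7% of all genes). Early genes of T-cell stimulation differed between libraries too. Of 26 such genes, all tested, 25 were lowest among the young libraries in young replicate 1, and their summed FPKM was 1820 to 3509 in young and 3953 to 5472 in old libraries. Batf, an AP-1 factor, rose among them (log2 difference 1.53 ± 0.18, SE, n = 3 per group, adjusted p = 0.025 in edgeR). It was the only call of the list, where 0.742% of all genes were called higher. The list's median log2 difference was 0.75, or 0.53 without young replicate 1, with 25 of 26 positive (44.9% of all genes). Without that library, 8 were called higher, where 5.86% of all genes were, and Nr4a1, Myc, Fos and Dusp2 turned negative. Il2, the T-cell growth factor, stood at 8.90, 29.7 and 15.4 FPKM in young and 29.4, 28.5 and 72.0 FPKM in old libraries, which overlap, with a log2 difference of 1.26 ± 0.53 (SE). Cd69, an early surface marker, stood at 126, 211 and 206 FPKM in young and 214, 243 and 427 FPKM in old libraries, with 0.70 ± 0.34 (SE). The part of the state of stimulation in the carriers' levels was not tested. Tnfrsf4 and Cd40lg, a costimulatory receptor and a ligand for B-cell help, had the next smallest p, with 1.18 ± 0.24 and 1.14 ± 0.24.

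Most markers of other cell types stood low in the sorted cells, with Cst3 (47.8 to 108 FPKM) and Pecam1 (19.2 to 72.2 FPKM) the highest. Neutrophil markers summed to 43.1 to 95.5 FPKM in young and 5.47 to 39.0 FPKM in old libraries, and all 5 tested of 8 had negative log2 differences. None was called in edgeR (1 without young replicate 1, where 2.98% of all genes were called lower), 5 had an unadjusted p under 0.05 (3.96% of all genes as lower), and DESeq2 called 3 (1.21% as lower). Elane and Mpo, genes of immature neutrophils, were at 0.12 FPKM or below. B-cell markers summed to 6.07 to 18.9 FPKM in young and 6.22 to 10.8 in old libraries, with 4 of 8 tested. Myeloid markers summed to 76.0 to 87.1 and 86.2 to 130.0 FPKM, with 5 of 10 tested, and none of either list was called in edgeR or DESeq2. Cst3, most of the myeloid sum, was higher in old libraries without overlap (log2 difference 0.58 ± 0.23, SE), and Lyz2 was lower (-0.87 ± 0.35), with unadjusted p of 0.0361 and 0.0396 in edgeR. NK markers summed to 20.4 to 29.9 and 10.6 to 12.2 FPKM (2 of 7 tested). Eomes, which T cells also express, gave 13.75, 28.5 and 28.0 FPKM of this in young and 8.17, 10.5 and 8.76 FPKM in old libraries, and Klrd1 0.65 to 6.27 FPKM, highest in young replicate 1, while Ncr1 was at 0.33 FPKM or below. DESeq2 called 1 NK and 1 dendritic gene (4.77% of all genes). Without young replicate 1, edgeR called Eomes lower (adjusted p = 0.00191) and Zbtb46, a dendritic cell factor, higher (adjusted p = 0.0266), where 2.98% and 5.86% of all genes were. Dendritic cell markers summed to 4.39 to 5.84 and 6.61 to 7.68 FPKM (3 of 6 tested), CD8 genes to 10.9 to 18.2 and 7.28 to 9.69 (1 of 2), erythroid and platelet genes to 2.57 to 6.79 and 1.44 to 2.33 (0 of 7), and stromal or endothelial genes to 19.5 to 72.5 and 26.2 to 30.3 (1 of 7, Pecam1). Their part in the carriers' levels was not tested.

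Other genes of the amino acid pathways were taken from lists of known members. In the amino acid response of Gcn2 and Atf4, 24 of 26 genes passed the filter. Their median log2 difference was 0.65 (0.58 without young replicate 1) against -0.03 over all genes tested, with 23 of 24 positive (44.9% of all genes). Chac1, an enzyme that degrades glutathione, rose from 12.8 ± 3.06 to 40.9 ± 4.09 FPKM (SD, n = 3 each), with a log2 difference of 1.66 ± 0.22 (SE) and an adjusted p = 0.0262 in edgeR. It was the only call of the list, where 0.742% of all genes were called higher. At an unadjusted p under 0.05, 14 were higher (6.69% of all genes), DESeq2 called 8 (4.77%), and 8 were called higher without young replicate 1 (5.86%). Trib3, a pseudokinase that feeds back on Atf4, stood at 27.5 ± 4.37 and 58.5 ± 11.9 FPKM, and Cebpb, a partner of Atf4 on its element, at 31.9 ± 6.01 and 64.2 ± 6.38 FPKM in young and old libraries (SD, n = 3 each). Neither passed the test over all genes, with adjusted p of 0.0764 and 0.0895 in edgeR. The part of amino acid supply in the levels of this list was not tested.

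In nutrient sensing by mTORC1, 34 of 35 genes passed the filter, with a median of -0.03 and 0 calls in edgeR (0.875% of all genes). At an unadjusted p under 0.05, 2 were higher and 1 lower (6.69% and 3.96% of all genes), and DESeq2 called 2 (4.77%). Sesn2, a leucine sensor that restrains mTORC1 and an Atf4 target, stood at 20.1 ± 3.44 FPKM in young and 40.5 ± 7.98 in old libraries (SD, n = 3 each), and Rragd, a Rag GTPase, at 5.56 ± 0.777 and 9.80 ± 1.49. Both were called higher without young replicate 1 (adjusted p of 0.0314 and 0.0268 in edgeR), where 5.86% of all genes were. Sesn1, a relative of Sesn2, stood at 37.8, 13.5 and 14.7 FPKM in young and 11.3, 9.09 and 7.65 FPKM in old libraries, so its log2 difference of -1.21 ± 0.39 (SE) was -0.61 without young replicate 1.

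Among regulators of carrier genes, 15 of 16 passed the filter, with a median of 0.01 and 0 calls in edgeR (0.875% of all genes). At an unadjusted p under 0.05, 2 were higher (6.69% of all genes), and DESeq2 called 2 (4.77%). Hif1a, the oxygen-sensing transcription factor, stood at 103 ± 22.9 FPKM in young and 204 ± 22.3 in old libraries (SD, n = 3 each), with a log2 difference of 0.98 ± 0.22 (SE) and an adjusted p = 0.119 in edgeR. Stat3, a cytokine signal transducer, and Rora, a nuclear receptor, had the next smallest p, with log2 differences of 0.65 ± 0.17 and 1.10 ± 0.48 (SE, n = 3 per group). Without young replicate 1, edgeR called all 3 of these genes higher (5.86% of all genes), and the log2 difference of Rora was 1.85. Myc, which drives carrier genes in stimulated T cells, stood at 134, 327 and 247 FPKM in young and 220, 269 and 315 FPKM in old libraries, with a log2 difference of 0.17 ± 0.34 (SE), or -0.13 without young replicate 1. It was singled out after its values were seen.

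**Figure D5:**
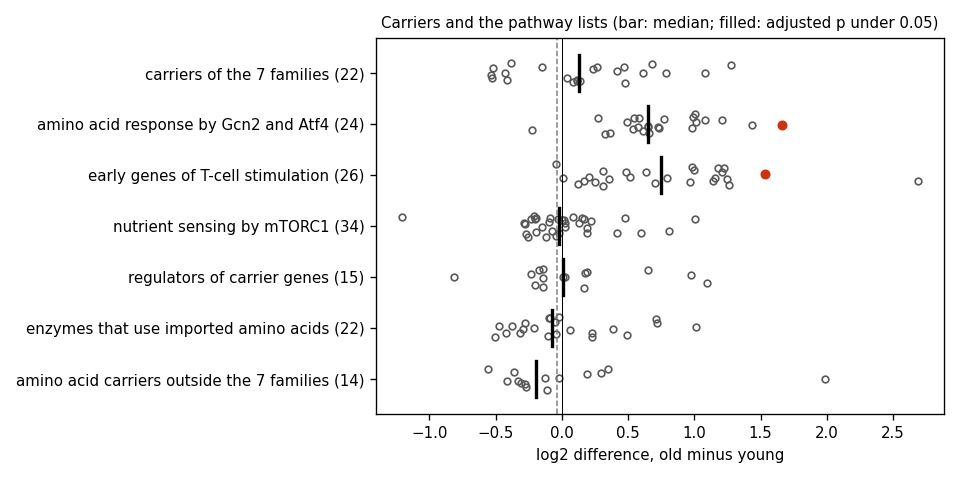
Log2 difference between old and young libraries (horizontal axis) of each tested gene in the 22 tested carriers and 6 pathway lists, with a bar at the list's median, filled points for genes with an adjusted p under 0.05 in edgeR, and the dashed line at the median of all genes. The amino acid response (0.65) and early stimulation (0.75) lists have the highest medians, each with 1 filled point, and the carriers' median is 0.13. Without young replicate 1, not drawn here, these medians were 0.58, 0.53 and 0.28.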

How the data were processed

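The authors deposited 1 table that lists 66712 RefSeq transcripts and gives each, per library, its expected count and its FPKM, per the file headers. The submitters' processing notes name Bowtie, RSEM and the mouse build GRCm38 (mm10). Tool versions, strand setting, annotation release and filtering of reads are details not given in the sources used. RSEM estimates how reads that fit several transcripts divide among them, so the authors' expected counts need not be whole, and values of single transcripts are less certain than their sum.

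Expected counts and FPKM were summed per Entrez gene. The RefSeq table of GRCm38 supplied symbols and gene positions for 19830 of 19977 genes. Summed counts were rounded and tested with edgeR 4.0.16 in R 4.3.3 (quasi-likelihood, TMM factors, all 6 libraries, no block, mean FPKM of at least 1), with Benjamini-Hochberg adjustment over all 10509 genes and calls at 0.05. Standard errors were obtained by dividing a log2 difference by the root of its F statistic. Levels are FPKM, which allow for transcript length. Whether groups overlap was read from counts divided by TMM-scaled library totals unless FPKM are printed beside it. The fit was checked on simulated counts. Figures were drawn with matplotlib 3.10.9.

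Members and lists were chosen with earlier results of these data known. Values in every library are given for carriers with an unadjusted p under 0.05 and for the 2 highest of each family. From each pathway list, calls and up to 3 genes with the smallest p are named. Slc7a10 and the further carriers were named after their values were seen. Alternatives were no filter or 5 FPKM, RLE or upper quartile factors, DESeq2 1.42.0, limma 3.58.1 on log2(FPKM + 1) or log2(FPKM + 0.1), a replicate block and leaving out each library, and, added after seeing the data, a filter of 0.5 FPKM, fits of Slc7a10 without a filter and lists without young replicate 1. The replicate numbers were not taken as pairs, since nothing in the labels says that they pair libraries. The correlation of deviations between libraries of the same number was 0.22, -0.03 and 0.18, which cannot decide whether they were paired.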

Additional observations from a re-analysis of the deposited data

How the results depend on the processing

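Over all genes, the 92 calls became 501 with DESeq2, 55 at a filter of 5 FPKM and 203 with no filter, and between 0 and 929 on leaving out 1 library. They were 0 without young replicate 2 (1296 genes at an unadjusted p under 0.05 in edgeR) or old replicate 2 (688), 6 without old replicate 1, 9 without old replicate 3, 7 without young replicate 3, and 929 without young replicate 1, and the causes were not tested. Among carriers, the count of 0 became 3 with DESeq2, where 22 were tested as before, and 1 (Slc7a10) with no filter or a filter of 0.5 FPKM, which it passed through the old libraries alone, and was 0 with each library left out. With a replicate block, 119 genes and 0 carriers were called. In deviations from the group means, young replicates 1 and 3 correlated best with the old library of their own number (0.22 and 0.18). Young replicate 2 correlated best with old replicate 3 (0.34).

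The 8 carriers with an unadjusted p under 0.05 kept a positive log2 difference under each alternative they entered, from 0.57 to 0.86 for Slc7a5 and from 0.65 to 0.94 for Slc1a4, for example. These 8 had been picked by their p-value in the same libraries. The log2 difference changed sign on leaving out a library for 6 other carriers. Without young replicate 1 it was 0.35 for Slc36a1 (lowest without another library, -0.67), 0.20 for Slc38a9 (-0.85), 0.27 for Slc43a2 (-0.82) and -0.18 for Slc7a3 (highest 0.30, and -0.03 without old replicate 2). Without young replicate 3 it was -0.0049 for Slc36a4 (highest 0.19) and -0.13 for Slc43a3 (highest 0.35). Scaling choices moved the median of all genes by less than 0.1 on the log2 scale. Slc1a7, with 29 to 103 counts per library, and Slc7a10, with 0 to 73, had few counts, and small differences of such genes could be missed.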

Other observations

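Of 17 amino acid carriers outside the 7 families, mostly lysosomal and mitochondrial, 14 were tested, with a median log2 difference of -0.20 and 10 of 14 negative. Of all genes tested, 44.9% were positive. None of the 14 was called in edgeR's quasi-likelihood test (0.875% of all genes), 1 was higher at an unadjusted p under 0.05 (6.69%), and DESeq2 called 1 (4.77%). Slc15a3, a lysosomal carrier of histidine and peptides, stood at 2.46, 3.92 and 2.70 FPKM in young and 6.94, 9.25 and 20.0 FPKM in old libraries. Every old library lay above every young one, and the log2 difference was 1.99 ± 0.43 (SE, n = 3 per group), with an adjusted p = 0.105 in edgeR, or 0.0464 without young replicate 1. Slc25a12, which exports aspartate from mitochondria, stood at 24.5, 33.0 and 29.7 FPKM in young and 24.1, 22.7 and 22.4 FPKM in old libraries. It was called lower without young replicate 1 (log2 difference -0.44, adjusted p = 0.0499 in edgeR). The glycine carrier of mitochondria, Slc25a38, stood at 26.5 ± 2.60 and 22.7 ± 2.29 FPKM (SD, n = 3 each).

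Enzymes that use imported amino acids were tested for 22 of 26 genes, with a median of -0.07 and 0 calls in edgeR or DESeq2 (0.875% and 4.77% of all genes). At an unadjusted p under 0.05 in edgeR, 3 were higher and 1 lower (6.69% and 3.96% of all genes). Asns, which makes asparagine from aspartate and glutamine and is a target of Atf4, stood at 37.4, 87.6 and 67.1 FPKM in young and 187, 117 and 90.2 FPKM in old libraries. Its groups did not overlap, and its log2 difference was 1.01 ± 0.38 (SE, n = 3 per group; adjusted p = 0.375 in edgeR). Gpt2, an alanine aminotransferase, stood at 8.88 ± 2.92 and 14.7 ± 1.78 FPKM in young and old libraries (SD, n = 3 each). Its log2 difference was 0.71 ± 0.27 (SE), or 0.46 without young replicate 1. Asl, which cleaves argininosuccinate to arginine, stood at 12.2 ± 0.625 and 9.28 ± 1.34 FPKM.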
